A study of Mus musculus with 96 samples.

Results

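The genes of SREBP-driven cholesterol and fatty acid synthesis were examined in mouse liver under phenobarbital, a classic inducer of hepatic drug metabolism, across 8 ways of preserving the same tissue. The set holds 35 genes chosen by name from the textbook pathway, out of 47373 gene rows in the count table, and all 35 were found. By role they are 17 enzymes of sterol synthesis, 1 sterol carrier, 5 regulators, 9 genes of fatty acid synthesis, elongation and desaturation, and 3 genes of glycerolipid assembly and storage. Male B6C3F1 mice aged 10 to 11 weeks drank water with 600 ppm phenobarbital (PB) or 0 ppm (Con) for 7 days, with 6 animals in each group. Flash frozen liver of mixed lobes from each animal was divided, so every state holds portions of the same 12 animals, and the comparisons in different states are not independent of each other.

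The states were as follows. Ethanol portions spent 3 months in 70% ethanol. Formalin portions spent 18 hours in 10% formalin and then stayed in 70% ethanol up to 3 months, or spent the full 3 months in 10% formalin, and all 3 of these states were embedded in paraffin. Material of the 3-month formalin state was also put through 4 further treatments before libraries were made: TAE buffer for 30 minutes at 70 °C, an organocatalyst for 18 hours at 55 °C followed by either the AllPrep or the PureLink kit, or the same 18 hours at 55 °C with heat only and no catalyst. Portions that were only kept frozen served as the comparison for all 7 preserved states.

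As background, SREBPs are transcription factors that are held in the endoplasmic reticulum membrane and released by proteolysis when sterols run low. SREBP2, made from Srebf2, mainly drives the cholesterol branch, while SREBP1c, made from Srebf1, mainly drives the fatty acid branch and responds to insulin and to LXR. INSIG proteins retain the precursors in the membrane, and ChREBP, made from Mlxipl, drives many of the same lipogenic genes in response to glucose metabolites.

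Promoter sequence is shown for 7 enzymes of both branches to show where it holds a CCAAT box, the element read by NF-Y, which acts beside SREBPs on many of these genes. Windows around each transcription start were taken from RefSeq for GRCm38.p6, and 28 of the 35 members matched, with 37 windows, of which the 250 bases before the start were searched. Stretches lying before the start and free of annotated exons are printed 5′ to 3′ on the gene's own strand. Capitals mark CCAAT or its reverse complement ATTGG, and in Hmgcs1 also a match to the sterol regulatory element searched as TCACNCCAC. Hmgcs1 makes HMG-CoA for the mevalonate pathway, Mvd makes isopentenyl diphosphate, Lss closes the lanosterol ring, Ebp moves the ring double bond late in the pathway, Sc5d adds a later double bond, Fasn builds palmitate and Acly makes cytosolic acetyl-CoA.
Hmgcs1, chr13:119690171-119690350, plus strand: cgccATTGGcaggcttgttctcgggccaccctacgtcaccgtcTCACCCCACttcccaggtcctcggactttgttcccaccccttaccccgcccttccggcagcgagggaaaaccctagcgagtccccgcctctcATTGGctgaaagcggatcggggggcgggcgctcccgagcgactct
Mvd, chr8:122443423-122443512, minus strand: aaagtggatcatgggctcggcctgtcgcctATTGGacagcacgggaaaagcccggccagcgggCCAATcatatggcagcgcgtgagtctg
Lss, chr10:76531515-76531587, plus strand: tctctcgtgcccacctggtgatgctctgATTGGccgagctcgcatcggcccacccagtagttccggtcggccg
Ebp, chrX:8193513-8193602, minus strand: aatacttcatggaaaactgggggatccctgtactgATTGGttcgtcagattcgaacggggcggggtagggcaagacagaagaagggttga
Sc5d, chr9:42264301-42264360, minus strand: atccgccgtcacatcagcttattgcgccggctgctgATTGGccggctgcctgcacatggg
Fasn, chr11:120824548-120824657, minus strand: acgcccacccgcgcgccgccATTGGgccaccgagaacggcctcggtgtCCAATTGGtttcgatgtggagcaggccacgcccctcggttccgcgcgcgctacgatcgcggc
Acly, chr11:100528001-100528110, minus strand: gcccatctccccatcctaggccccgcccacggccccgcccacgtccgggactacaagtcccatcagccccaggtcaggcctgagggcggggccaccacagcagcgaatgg

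Searched on both strands, CCAAT was present in 13 of 17 windows of sterol enzymes (76.5%), in 3 of 7 windows of fatty acid genes (42.9%) and in 33.8% of the 32851 windows of all genes. The 7 fatty acid windows lack Scd1 and Fads1, the sterol windows lack Fdps, Fdft1 and Sqle, and the difference between the branches was not tested. The Mvd stretch holds the box in both orientations, and in Fasn the second copy overlaps its own reverse complement. TCACNCCAC, searched on both strands, was present in 2 of 37 member windows (5.41%), 1 of Hmgcs1 and 1 of Mlxipl, and in 1.05% of all windows. These matches describe the letters in the windows only.

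The deposited values are read counts from ribosome-depleted, strand-specific total RNA libraries, 1 library for each animal and state. Totals over genes ran from 1264563 to 18442730 counts, and the lowest belonged to the 3-month formalin portion of Con animal 8A. The smallest count of any member in any library was 3, and all 35 members passed the filter on low counts in every comparison. Levels are given as CPM, counts scaled to the size of their library, with TMM scaling. Cyp2b10, the standard phenobarbital response gene, had 1818 to 2784 CPM in frozen PB liver, against 0.0698 to 0.378 CPM in frozen Con liver, which checks the treatment labels. In bulk RNA of this kind, fewer cells of a type and less RNA per cell cannot be told apart. The summed level of 9 hepatocyte markers was 92236 to 118321 CPM in frozen PB liver, against 117064 to 136520 CPM in frozen Con liver, with 2 of the 9 called lower (Ahsg and Hnf4a) and none at 0. All 6 proliferation markers were called higher in frozen PB liver, with summed levels of 28.4 to 149 CPM, against 10.1 to 20.6 CPM in Con liver. Of 7 adipocyte markers, 2 could be tested and neither was called, while Lep, Plin1 and Cidea were at 0 counts in frozen liver. Of the Kupffer, endothelial, stellate, bile duct and lymphocyte lists, 1 stellate marker was called higher in frozen PB liver and no other. Hepatocyte sums did not overlap in heat only, at 41923 to 65038 CPM in PB and 69870 to 81647 CPM in Con. They were also apart in both catalyst states, and overlapped elsewhere. Endothelial markers were called higher in 3-month formalin and TAE (2 each), and in heat only and AllPrep (1 each). TAE and AllPrep also had 1 stellate marker higher, and AllPrep 1 Kupffer marker. The part of these shifts in the results on lipid genes was not tested.

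In frozen liver the set covered a wide span of levels when CPM were set per kilobase of a gene's merged exons. Scd1, which puts the double bond into oleate and palmitoleate, was highest at 980 ± 533 CPM per kb in PB libraries and 2455 ± 734 CPM per kb in Con libraries (SD, n = 6 each). Elovl5, which elongates polyunsaturated fatty acids, followed at 196 ± 70.0 CPM per kb in PB and 291 ± 56.1 CPM per kb in Con. Insig2 and Dgat2, which makes triglyceride, were next in PB libraries at 161 ± 27.4 and 152 ± 11.8 CPM per kb, a gap smaller than the spread of Insig2. Fads2, the first desaturase of the polyunsaturated pathway, stood at 87.2 ± 12.5 CPM per kb in PB and 140 ± 10.8 CPM per kb in Con. Srebf1 was higher per kilobase than Srebf2, at 43.6 ± 12.4 and 6.70 ± 1.18 CPM per kb in PB libraries. Idi1, the isomerase of the isoprenoid steps, was lowest at 4.53 ± 1.52 CPM per kb in PB and 4.89 ± 1.62 CPM per kb in Con, within its spread of Fdps at 4.81 ± 0.894 and 5.16 ± 1.86 CPM per kb. The choice of length matters for part of this order: per kilobase of the longest protein-coding transcript, Fdps stood at 14.6 ± 2.72 CPM per kb in PB and 15.7 ± 5.65 CPM per kb in Con and Idi1 at 5.24 ± 1.77 in PB and 5.66 ± 1.88 CPM per kb in Con. Scd1 and Elovl5 were the 2 highest and Idi1 the lowest by either length in both treatments.

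Phenobarbital was accompanied by a narrow change in the set, in genes of fatty acid desaturation or elongation. Fads2 was called lower in all 8 states, Scd1 in 3 and Elovl5 in 1. The estimates of Scd1 and Elovl5 were below 0 in all 8 states, each with an unadjusted p under 0.05 by edgeR. No sterol enzyme and no regulator passed the test in any state, and no member was called higher. With edgeR's quasi-likelihood test and Benjamini-Hochberg adjustment over all genes, frozen liver had 0 members higher and 2 lower, where 5.89% of all genes tested were higher and 3.53% lower. Ethanol had 0 higher and 3 lower, beside 4.82% and 2.16% of all genes. The 18-hour formalin state had 0 and 1, beside 3.45% and 1.43%, and the 3-month formalin state 0 and 1, beside 1.66% and 0.446%. TAE material had 0 and 1, beside 2.35% and 0.941%, and heat-only material 0 and 1, beside 3.53% and 1.5%. Catalyst with AllPrep had 0 and 2, beside 3.12% and 1.82%, and catalyst with PureLink 0 and 1, beside 3.21% and 1.44%. With 1 to 3 members called lower and 0 higher, the set as a whole was not called more often than this background in the higher direction, and its lower calls rest on 3 genes. At an unadjusted p under 0.05 in either direction, edgeR counted 8 members in frozen liver, beside 24.6% of all genes, 4 in ethanol beside 22.0%, 5 in 18-hour formalin beside 19.3% and 5 in 3-month formalin beside 12.4%. It counted 3 in TAE beside 15.2%, 6 in heat only beside 18.9%, 4 with AllPrep beside 18.7% and 4 with PureLink beside 17.3%. The median log2 fold change over the 35 members lay between -0.11 in ethanol and 0.05 in 18-hour formalin, against -0.01 to 0.01 over all genes tested.

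Fads2 (ENSMUSG00000024665, chr19:10062765-10101746, minus strand) carried the most regular change. In frozen liver it had 251, 274 and 358 CPM as the lowest, median and highest of the 6 PB libraries, against 415, 466 and 509 CPM in the 6 Con libraries. The groups did not overlap, and the log2 fold change was -0.69 ± 0.09 (SE) with an adjusted p of 0.000319 by edgeR. In ethanol the PB libraries had 239, 254 and 334 CPM, against 378, 471 and 539 CPM in Con libraries. After 18 hours of formalin they had 177, 213 and 283 CPM, against 312, 357 and 425 CPM in Con. In both states all PB values were below all Con values, with log2 fold changes of -0.81 ± 0.11 and -0.74 ± 0.11. Catalyst with AllPrep gave 148, 179 and 241 CPM in PB, against 313, 323 and 363 CPM in Con. Catalyst with PureLink gave 152, 174 and 238 CPM in PB, against 298, 324 and 354 CPM in Con. The groups were apart again, by -0.83 ± 0.11 and -0.80 ± 0.10 on the log2 scale. TAE material had 126, 166 and 243 CPM in PB, against 270, 289 and 298 CPM in Con, and heat-only material 121, 163 and 252 CPM in PB, against 291, 335 and 362 CPM in Con. These too did not overlap, at -0.72 ± 0.13 and -0.88 ± 0.14.

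Only in 3-month formalin did the Fads2 groups overlap, where PB libraries had 134, 159 and 277 CPM, against 232, 265 and 364 CPM in Con libraries. The PB library of animal 20D, at 277 CPM, was the one inside the Con range. The log2 fold change there was -0.69 ± 0.16 with an adjusted p of 0.0364, while over all 8 states the adjusted p of edgeR ran from 0.000279 to 0.0364. With 1 animal left out at a time, Fads2 was still called in 12 of 12 fits in each of the other 7 states. In 3-month formalin it was called in 2 of 12 such fits, without Con animal 82B at an adjusted p of 0.0402 and without PB animal 20D at 0.000986, and the other 10 fits reached at most 0.0912, with log2 fold changes of -0.86 to -0.60 over all 12. When counts were scaled by library totals alone, the adjusted p in 3-month formalin was 0.0685. Mitochondrial transcripts made up 10.8% ± 3.52 of counts in heat-only PB libraries, against 5.82% ± 0.897 in heat-only Con libraries (SD, n = 6 each). In frozen liver these shares were 2.70% ± 0.485 in PB and 2.43% ± 0.284 in Con. Their part in the Fads2 differences was not tested.

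**Figure D1:**
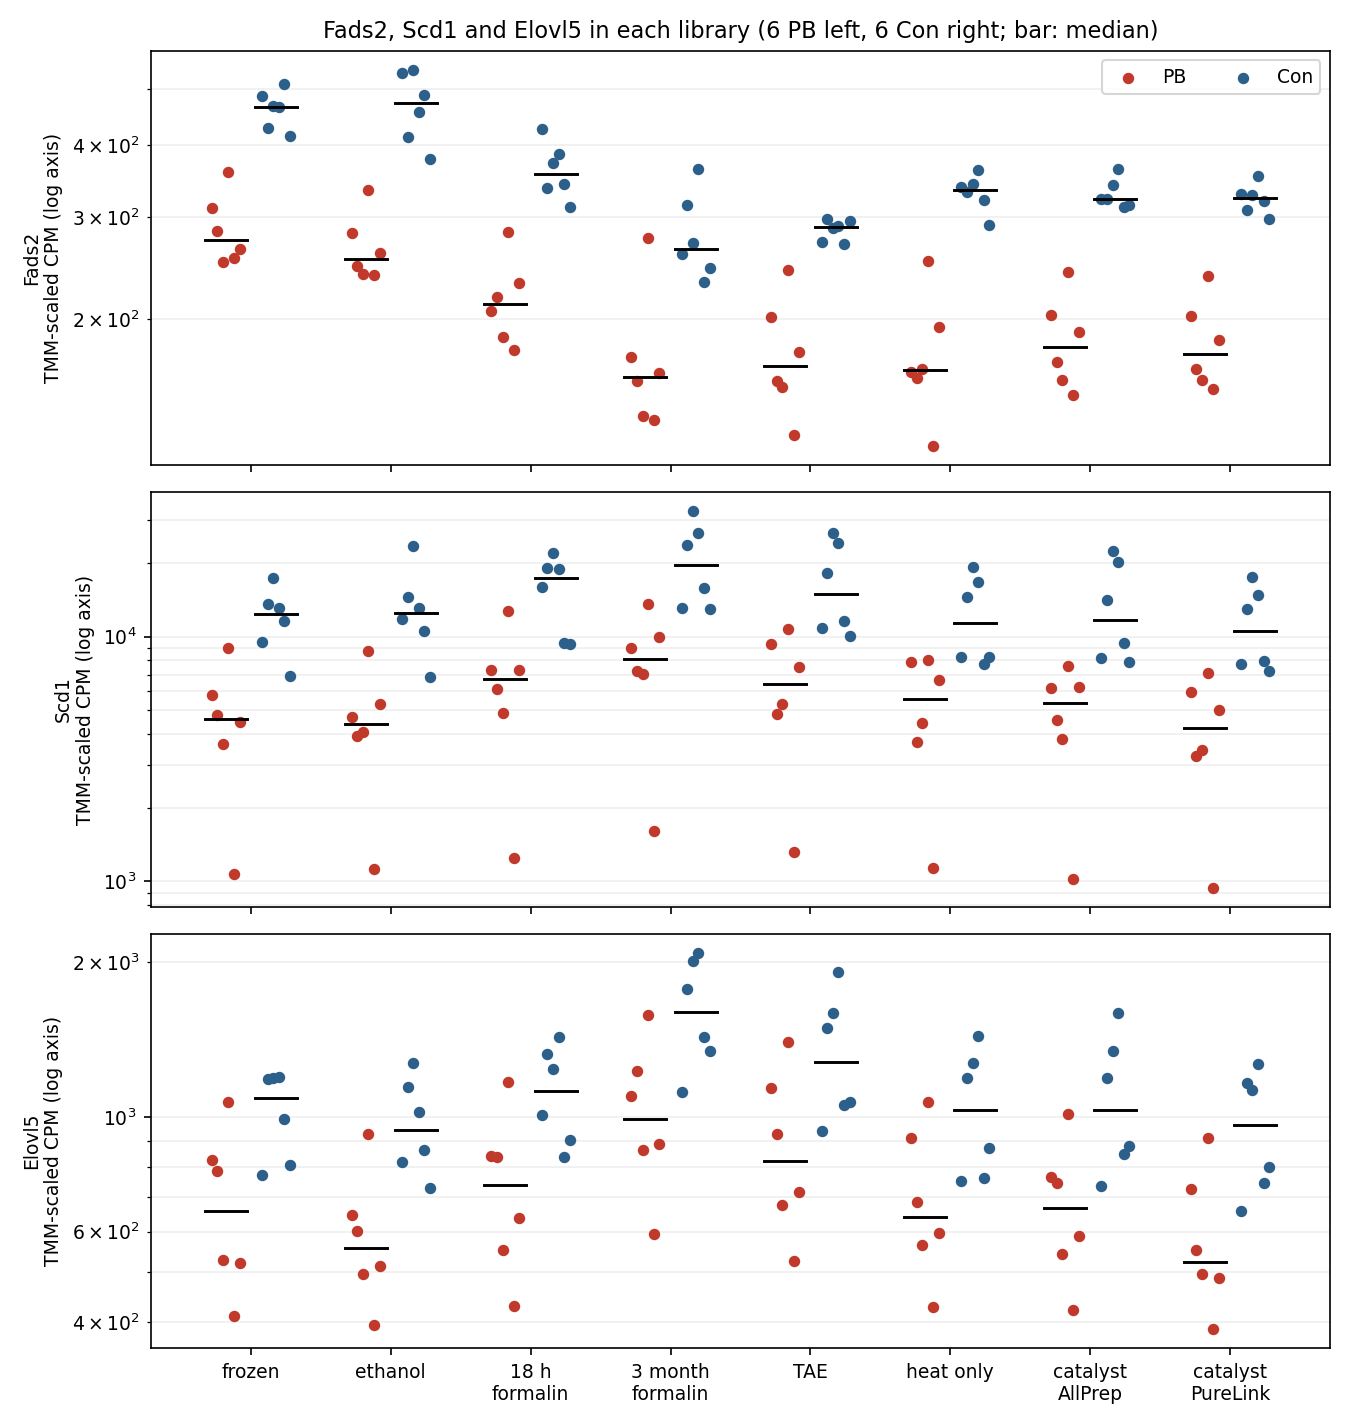
Levels of Fads2, Scd1 and Elovl5 in CPM (log axis) in each library, by preservation state, with PB left of Con in every pair. Points are animals (n = 6 a group) and bars are group medians; Fads2 groups are apart in every state except 3-month formalin, while Scd1 groups are apart only in the catalyst states and Elovl5 groups overlap throughout.

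Scd1 (ENSMUSG00000037071, chr19:44394455-44407879, minus strand) had the largest difference of any member in size but also a wide spread among PB animals. In frozen liver it had 1074, 4625 and 9015 CPM in PB libraries, against 6916, 12362 and 17351 CPM in Con libraries. The ranges overlapped, with a log2 fold change of -1.33 ± 0.37 and an adjusted p of 0.0376 by edgeR. In ethanol it had 1120, 4391 and 8751 CPM in PB, against 6814, 12472 and 23437 CPM in Con, again with overlap, at -1.52 ± 0.39 and an adjusted p of 0.0295. In catalyst with AllPrep it had 1027, 5379 and 7569 CPM in PB, against 7896, 11740 and 22413 CPM in Con. Here the ranges were apart, at -1.48 ± 0.40 and an adjusted p of 0.0449. With PureLink it had 943, 4221 and 7133 CPM in PB, against 7255, 10500.5 and 17507 CPM in Con, also apart, at -1.40 ± 0.38 and an adjusted p of 0.0522. After 18 hours of formalin it had 1243, 6717 and 12688 CPM in PB, against 9319, 17419 and 21896 CPM in Con. After 3 months of formalin it had 1608, 8129 and 13663 CPM in PB, against 12964, 19715 and 32546 CPM in Con. In both the ranges overlapped. Heat-only material had 1133, 5542 and 8008 CPM in PB, against 7716, 11413 and 19185 CPM in Con, and TAE material 1320, 6423 and 10719 CPM in PB, against 10037, 14937 and 26629 CPM in Con, both with overlap. In these 4 states the log2 fold change was -1.19 to -1.40 with adjusted p from 0.0782 to 0.101, so these did not pass.

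The Scd1 calls also depended on which animals were in the fit, while its fold stayed large. With 1 animal left out, Scd1 was called in 3 of 12 fits in frozen liver, those without Con animal 90C (adjusted p 0.0360) and without PB animals 20D (0.0146) and 75C (0.0175). Leaving out any of the other 9 animals took it past the threshold, up to 0.0815, with log2 fold changes of -1.6 to -1.11 over all 12 fits. In ethanol it was called in 6 of 12 fits, those without Con animals 8C (0.0470), 21C (0.0457), 82B (0.0439) and 90C (0.0243) or PB animals 20D (0.0127) and 75C (0.0175), with the rest up to 0.0650 and folds of -1.80 to -1.29. In catalyst with AllPrep it was called in 4 of 12, those without Con animals 8A (0.0421) and 90C (0.0423) or PB animals 20D (0.0370) and 75C (0.0303), with the rest up to 0.101 and folds of -1.65 to -1.27. DESeq2, a second count model, called Scd1 lower in all 8 states, with adjusted p from 0.00304 to 0.0311. Scd1 lies in a cluster of closely related Scd genes, and how reads shared between them were counted is not given in the sources used here.

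Elovl5 (ENSMUSG00000032349, chr9:77917364-77984519, plus strand) was called in ethanol, where it had 395, 557 and 929 CPM in PB libraries, against 729, 944 and 1278 CPM in Con libraries. The ranges overlapped, at a log2 fold change of -0.71 ± 0.19 and an adjusted p of 0.0390. In frozen liver it had 412, 657 and 1069 CPM in PB, against 773, 1089 and 1197 CPM in Con, at -0.57 ± 0.21 and an adjusted p of 0.109, which did not pass. Across the 8 states its log2 fold change lay between -0.52 and -0.71, and the groups overlapped in every one. The PB median was lowest with PureLink, at 525 CPM against 966 CPM in Con, and highest in 3-month formalin, at 994 CPM in PB against 1603 CPM in Con. With 1 animal left out, the ethanol call held in 2 of 12 fits, those without Con animal 90C (0.0333) and without PB animal 20D (0.00537), and the other 10 reached up to 0.0898, with log2 fold changes of -0.88 to -0.61 over all 12. DESeq2 called Elovl5 lower in 4 states, namely ethanol, 3-month formalin and both catalyst states.

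The other 6 genes of the fatty acid group passed in no state. Fasn had 833, 1675 and 2120 CPM in frozen PB liver, against 649, 1167 and 2051 CPM in frozen Con liver, and its log2 fold change was 0.13 to 0.42 over the 8 states with adjusted p of 0.384 or more. Elovl6, which carries palmitate to stearate, had 112, 173 and 211 CPM in frozen PB liver, against 93.7, 122 and 168 CPM in Con, and 0.19 to 0.40 on the log2 scale over the states. Both point estimates were above 0 in 8 of 8 states, whereas those of Fads2, its neighbour Fads1, Scd1, Elovl5 and Acacb were below 0 in 8 of 8. Among the lipid assembly genes, Dgat2 had 415, 477 and 502 CPM in frozen PB liver, against 435, 471 and 496 CPM in Con, and was the steadiest. Pnpla3, a lipid droplet hydrolase, had 4.20, 14.3 and 25.5 CPM in PB, against 3.84, 9.40 and 16 CPM in Con. Its log2 fold change ran from -0.11 to 0.80 between states with adjusted p of 0.332 or more, so no direction could be assigned.

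In the cholesterol branch, 0 of 17 sterol enzymes were called by edgeR in each of the 8 states, and DESeq2 called 0 as well. At an unadjusted p under 0.05 edgeR counted 1 of the 17 in frozen liver, 3-month formalin, heat only and both catalyst states, and 0 in ethanol, 18-hour formalin and TAE. The median log2 fold change of the 17 was 0.02 in frozen liver and ran from -0.12 to 0.06 over the states, while that of the 9 fatty acid genes was -0.10 in frozen liver and ran from -0.17 to -0.05. Hmgcs1, whose promoter is printed above, had 223, 370 and 624 CPM in frozen PB liver, against 228, 364 and 667 CPM in Con. Sqle, the epoxidase at the start of the sterol-specific steps, had 64.9, 96.9 and 143 CPM in PB, against 46.7, 90.7 and 153 CPM in Con. Mvd had 14.1, 18.2 and 34.3 CPM in PB, against 9.48, 19.9 and 27.8 CPM in Con. In all of these the groups overlapped almost completely.

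Ebp (ENSMUSG00000031168, chrX:8185329-8193512, minus strand) was the sterol enzyme that came nearest to the threshold. It had 75, 92.3 and 127 CPM in heat-only PB libraries, against 117, 127 and 135 CPM in heat-only Con libraries, with overlap. The log2 fold change was -0.35 ± 0.11 and the adjusted p 0.0896, with the mitochondrial shares of heat-only libraries as given above. In frozen liver Ebp had 185, 208 and 215 CPM in PB, against 201, 226 and 243 CPM in Con, at -0.14 ± 0.06 and an adjusted p of 0.171. Pmvk, Lss, Nsdhl and Ebp had estimates below 0 in 8 of 8 states and Sc5d above 0 in 8 of 8, none of which passed.

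**Figure D2:**
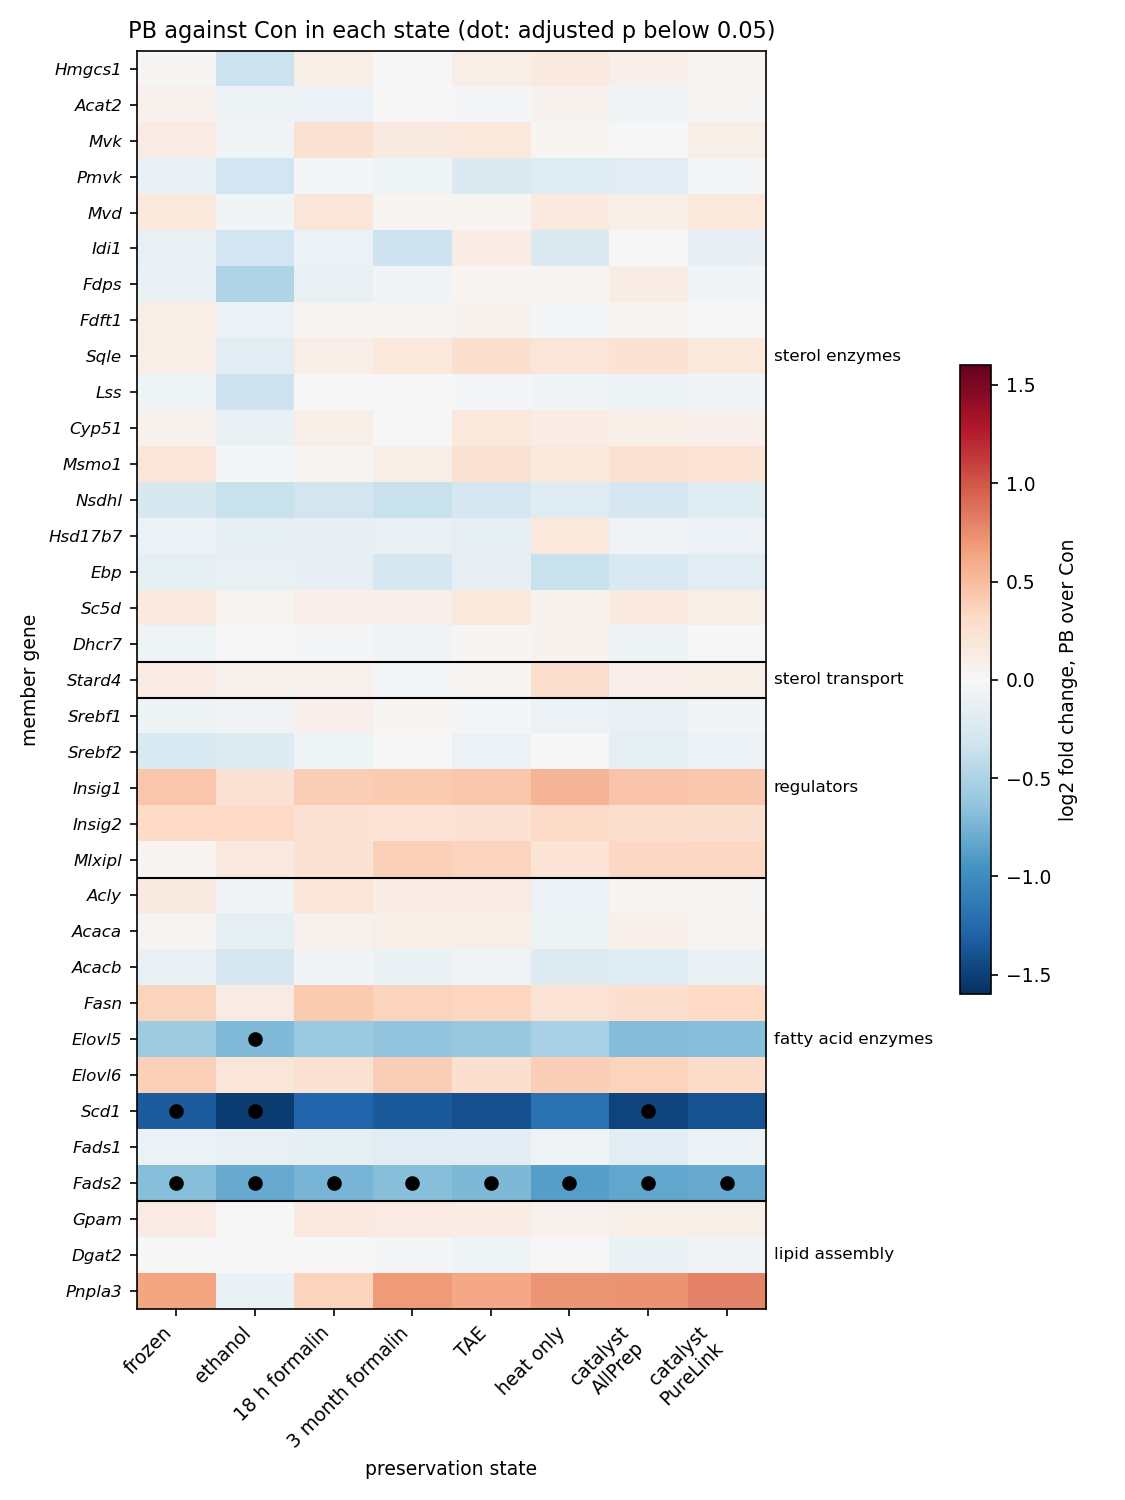
PB against Con log2 fold change of all 35 members (rows, grouped by role) in the 8 preservation states (columns), as colour from blue (lower in PB) to red (higher in PB), with a dot at an adjusted p under 0.05. The dots are Fads2 in 8 states, Scd1 in 3 and Elovl5 in 1, and no sterol enzyme or regulator has a dot.

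The regulators did not pass in any state. Srebf1 (ENSMUSG00000020538, chr11:60199089-60222581, minus strand) had 136, 266 and 311 CPM in frozen PB liver, against 201, 257 and 322 CPM in frozen Con liver, with overlap. Its log2 fold change was -0.08 ± 0.19 with an adjusted p of 0.834, and -0.12 to 0.08 over the 8 states. Srebf2 (ENSMUSG00000022463, chr15:82147181-82205379, plus strand) had 42.2, 45.6 and 64.9 CPM in PB, against 49.9, 57.9 and 62.9 CPM in Con. Only 1 PB library lay above the Con minimum, the one of animal 75C, and the adjusted p was 0.125 at -0.25 ± 0.10. Insig1 (ENSMUSG00000045294, chr5:28071363-28078662, plus strand), itself a classic SREBP target, had 306, 360 and 531 CPM in PB, against 174, 317 and 356 CPM in Con. Its log2 fold change was 0.44 ± 0.19 in frozen liver with an adjusted p of 0.157, and 0.23 to 0.54 over the states.

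Insig2 (ENSMUSG00000003721, chr1:121304353-121332589, minus strand), which in liver is not under the same sterol feedback, had 483, 540 and 736 CPM in frozen PB liver, against 339, 469 and 491 CPM in frozen Con liver. The ranges overlapped narrowly, at 0.31 ± 0.11 and an adjusted p of 0.104. Its estimate was above 0 in 8 of 8 states, from 0.22 to 0.32, and edgeR's adjusted p was lowest in ethanol at 0.0706. DESeq2 called it higher in ethanol with an adjusted p of 0.0288. Mlxipl (ENSMUSG00000005373, chr5:135089890-135138382, plus strand) had 239, 277 and 316 CPM in frozen PB liver, against 214, 269 and 317 CPM in Con, at 0.03 ± 0.09 and an adjusted p of 0.894. Its largest estimate was 0.38 ± 0.18 in 3-month formalin, with an adjusted p of 0.394.

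In the preserved states the regulators showed the same overlap. Srebf1 medians ran from 197 CPM in heat only to 305 CPM in ethanol in PB libraries, and from 169 CPM in 3-month formalin to 284 CPM in ethanol in Con libraries. The PB group reached lower than the Con group in all 8 states, its lowest library each time being that of animal 20B. Srebf2 medians ran from 45.6 CPM in frozen liver to 60.4 CPM in 3-month formalin in PB libraries, and from 57.0 CPM in heat only to 71.3 CPM in ethanol in Con libraries. Insig1 had a higher PB than Con median in all 8 states, the widest in heat only at 345 CPM in PB against 262 CPM in Con. Its groups overlapped there, at 248 to 521 CPM in PB and 167 to 372 CPM in Con. Insig2 had a higher PB than Con median in all 8 states as well, for example 506 CPM in PB against 423 CPM in Con in ethanol, where the ranges of 454 to 626 CPM and 329 to 477 CPM met at their edges. Mlxipl reached 822 CPM in heat-only PB liver, against at most 603 CPM in heat-only Con liver, although the medians were 490 CPM in PB and 473 CPM in Con.

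Whether preservation altered the phenobarbital response of these genes was tested as the interaction of treatment and state, each preserved state against frozen liver over 24 libraries. The first fit took no account of the pairing of libraries by animal, so differences between animals stayed in its error. The fit with the animal as a block did take account of it. By edgeR, 0 of 35 members were called in each of the 7 fits, beside 0.0% of all genes, and 0 members had an unadjusted p under 0.05, where all genes reached 1.17% in ethanol, 1.55% in 18-hour formalin, 3.38% in 3-month formalin, 1.44% in TAE, 4.5% in heat only, 2.77% with AllPrep and 1.63% with PureLink. These shares of all genes were below what a threshold of 0.05 gives by chance, so the first fit was conservative. Its lack of calls cannot show that the response was unaltered. DESeq2 also called 0 in all 7. The smallest unadjusted p of a member was 0.0982, for Srebf2. The Fads2 interaction estimates lay between -0.21 and -0.01 on the log2 scale. With the animal as a block, edgeR still called 0, while members with an unadjusted p under 0.05 numbered 13 in ethanol, beside 5.54% of all genes, 5 in 18-hour formalin beside 6.4% and 4 in heat only beside 11.2%. The other states had 1 member each, beside 5.62% in 3-month formalin, 4.2% in TAE, 11.1% with AllPrep and 5.96% with PureLink. The 13 of 35 in ethanol were above the share of all genes, but none passed the adjustment. In the first fit the ethanol estimates were below 0 for 30 of 35 members, with a median of -0.18. These included 15 of 17 sterol enzymes and 9 of 9 fatty acid genes. Over all genes the ethanol median was 0.01, and 52.7% were above 0. In the other states 16 to 23 of 35 members were below 0. A shared direction of the set was not tested.

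Further lists of pathway genes gave the setting. Of 19 additional sterol genes, outside the 35 members, 0 were called by edgeR in any state, with 1 to 4 at an unadjusted p under 0.05. Of 24 additional lipogenic genes, 3 rose and 1 fell in frozen liver, beside the 5.89% and 3.53% of all genes given above. Elovl1, an elongase of very long chain fatty acids, rose by 0.79 ± 0.06 on the log2 scale with an adjusted p of 2.14e-06 and was called higher in 8 of 8 states. Thrsp, a lipogenic gene responsive to thyroid hormone, rose by 1.24 ± 0.29 with an adjusted p of 0.0162 and was called higher in 6 states. Pgd, which supplies NADPH, rose by 0.38 ± 0.10 with an adjusted p of 0.0229 and was otherwise called only with PureLink. Hacd3, a dehydratase of the elongation cycle, was lower at -0.22 ± 0.05 with an adjusted p of 0.0184. It was called lower in every state except heat only. Of 16 LXR-related genes, 0 rose and 3 fell in frozen liver, namely Scarb1, the HDL receptor (-0.57 ± 0.08, adjusted p 0.000798), Abcg8, a subunit of the biliary sterol exporter (-0.36 ± 0.09, 0.0286), and Nr1h2, which encodes LXR beta (-0.25 ± 0.06, 0.0277). Scarb1 was called lower in 8 of 8 states, while Abcg8 and Nr1h2 were called in frozen liver only.

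The ends of the order of animals recurred from state to state for fatty acid genes, and less closely for sterol enzymes. The branches also ordered the animals differently. For sterol enzymes the first place was held by 82B, 8D, 75C or 80B, depending on the state, and the last by 21C, 8A or 18B. As the mean deviation of a branch's genes from the 12-animal mean within a state, in log2 CPM averaged over 8 states, the sterol enzymes were highest in PB animals 80B and 75C (0.37 each) and in Con animal 82B (0.31), and lowest in PB animal 18B (-0.32) and Con animal 21C (-0.42). The fatty acid genes were lowest in PB animals 75C (-0.64) and 20B (-0.49), which were the last and the next to last of the 12 in all 8 states, and highest in Con animals 8D (0.51) and 8C (0.49), which stayed within the first 3 of the 12. Others moved, as Con animal 8A did between places 6 and 12 for sterol enzymes and Con animal 82B between places 4 and 10 for fatty acid genes. Animal 75C was thus among the highest for one branch and the lowest for the other. The 12-animal mean holds both treatments, so a difference between PB and Con enters these deviations too. In frozen liver the branch means had an SD of 0.256 in PB and 0.372 in Con for sterol enzymes, and 0.360 in PB and 0.275 in Con for fatty acid genes.

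Single genes were also ordered by animal. Scd1, Elovl5 and Fads2 are among the fatty acid genes averaged above, so their order is not independent of that mean. Scd1 and Elovl5 were lowest among PB animals in 75C in 8 of 8 states, and Fads2 in 7, while 20D was the highest PB animal for all 3 genes in 8 of 8. Among Con animals, Scd1 was highest in 8D in 8 of 8 states and lowest in 90C in 7. Animal 75C had the highest Insig1 of the PB group in 8 of 8 states, and 20B the lowest Srebf1 in 8 of 8, at 88.3 to 161 CPM. In frozen liver Con animal 82B was the highest of its group for 15 of the 17 sterol enzymes and 21C the lowest for 15 of 17. These counts were lower in most other states, at 6 to 10 of 17 for 82B, and at 6 of 17 in 3-month formalin to 17 of 17 in ethanol for 21C. The SD of log2 CPM within frozen groups was largest for Scd1 in PB at 1.04, against 0.460 in Con. It was 0.114 in PB and 0.0705 in Con for Dgat2.

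**Figure D3:**
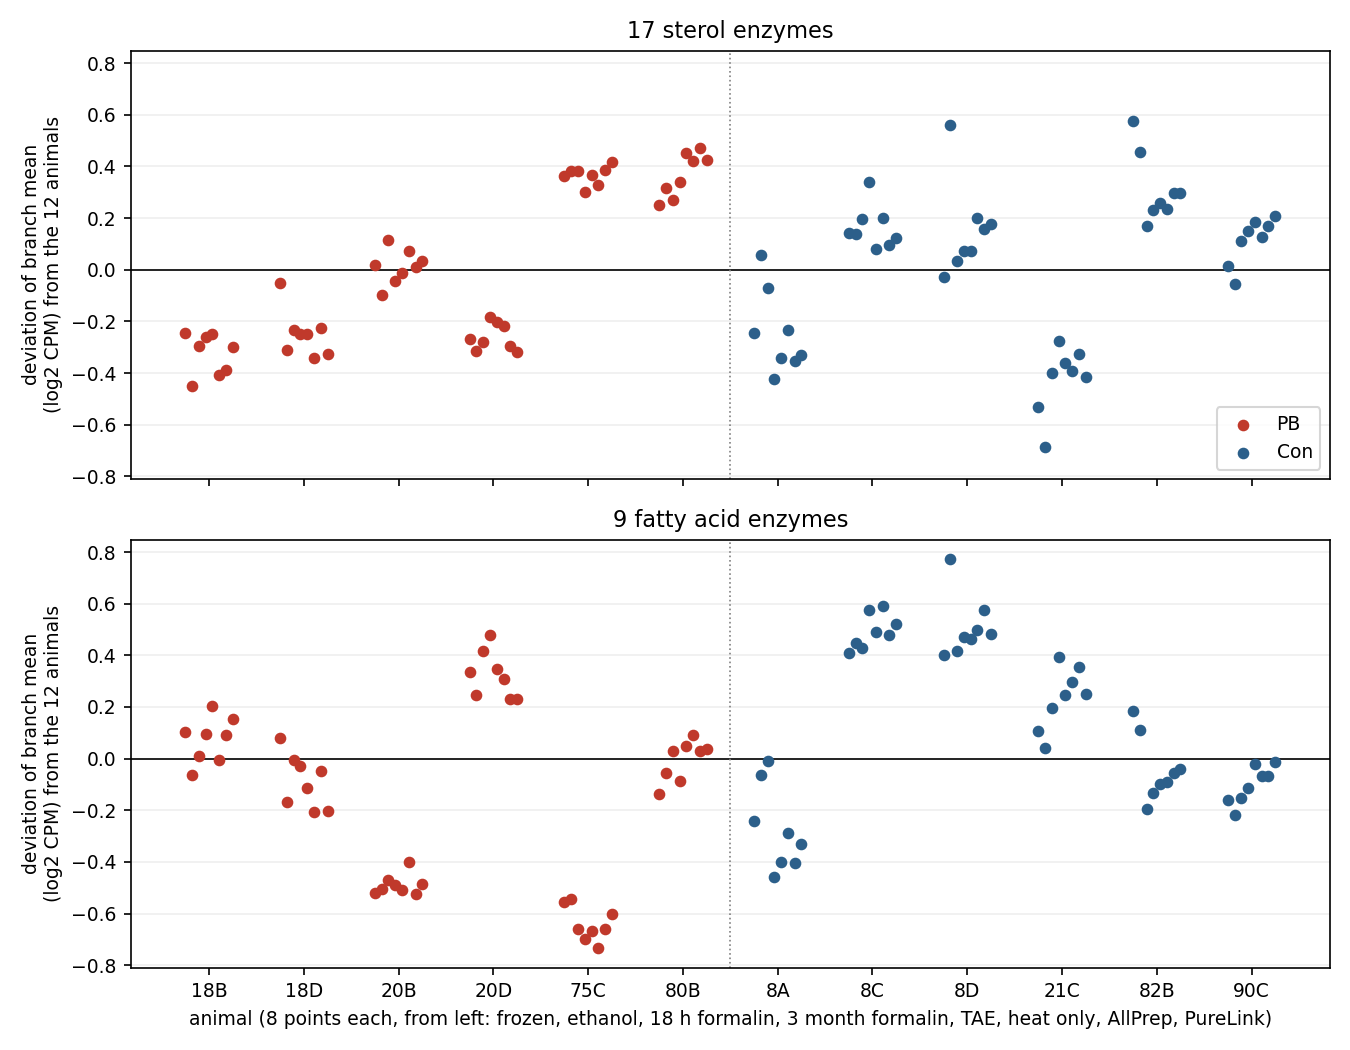
Mean deviation of each animal from the 12-animal mean of its state, in log2 CPM, over the 17 sterol enzymes and over the 9 fatty acid genes, with PB animals left of Con animals. Each point is 1 of the 8 states; the fatty acid deviation of PB animal 75C stays between -0.73 and -0.54 in all of them, while its sterol deviation is 0.30 to 0.42.

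Between preserved states and frozen liver, many members were called in the 3-month formalin material and its 4 further treatments, fewer after 18 hours of formalin and 3 in ethanol. Each preserved state was compared with frozen liver over 12 libraries a state, with treatment as a covariate. Ethanol had 2 members higher and 1 lower, where 15.5% of all genes were higher and 16.6% lower. The 18-hour formalin state had 4 and 3, beside 19.9% and 19.5%, and the 3-month formalin state 12 and 11, beside 30.6% and 27.8%. TAE had 8 and 12, beside 30.8% and 26.6%, and heat only 3 and 14, beside 27.3% and 27.8%. Catalyst with AllPrep had 3 and 8, beside 26.7% and 21.7%, and catalyst with PureLink 2 and 13, beside 31.0% and 27.1%. Members lower were above the share of all genes most clearly in heat only (14 of 35) and with PureLink (13 of 35). They were above it by less in TAE and 3-month formalin, and barely with AllPrep. Members higher were below the share of all genes in every state except 3-month formalin. This reading is of the fit that takes no account of the pairing by animal. Because the states are portions of the same animals, a fit with the animal as a block was also made, and it called more members and more genes overall. Ethanol then had 10 members higher and 8 lower, beside 23.6% and 27.9% of all genes, 18-hour formalin 15 and 9, beside 27.4% and 28.5%, and 3-month formalin 15 and 18, beside 32.6% and 31.1%. TAE had 13 and 18, beside 36.0% and 31.4%, and heat only 5 and 23, beside 32.3% and 32.6%. Catalyst with AllPrep had 5 and 18, beside 33.5% and 27.7%, and catalyst with PureLink 4 and 27, beside 37.0% and 32.7%. With the block, the reading changed in part. Members higher were above the share of all genes in ethanol, both formalin states and, barely, TAE, and below it in the other states. Members lower were above it in 3-month formalin and all 4 further treatments, clearly so with AllPrep too, and below it in ethanol and 18-hour formalin.

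The balance of higher and lower depended on scaling. With library totals alone the median of all genes shifted by over 0.1 in 5 of the 7 comparisons, by 0.18 in 18-hour formalin, 0.23 in TAE, 0.27 in heat only, 0.21 in catalyst with AllPrep and 0.27 in catalyst with PureLink. The members' split then became 6 higher and 1 lower in ethanol, beside 25.2% and 6.1% of all genes, 13 and 2 in 18-hour formalin, beside 41.2% and 6.56%, and 12 and 10 in 3-month formalin, beside 33.0% and 25.5%. It became 15 and 4 in TAE, beside 50.6% and 14.0%, and 7 and 6 in heat only, beside 52.4% and 13.1%. With AllPrep it was 9 and 4, beside 50.2% and 10.2%, and with PureLink 7 and 5, beside 57.6% and 11.7%. Insig2, called lower in heat only and with PureLink, had the other sign under library totals, the only called member to do so. Mitochondrial transcripts were 10.4% ± 3.00 of counts in 3-month formalin PB libraries and 9.43% ± 1.77 in Con libraries, against 2.70% ± 0.485 and 2.43% ± 0.284 in frozen PB and Con libraries. Their part in the shifts of member levels was not tested.

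In 3-month formalin the 4 largest called rises were Scd1, Stard4, Elovl5 and Elovl6. Stard4, a soluble sterol carrier, had 187 to 268 CPM in 3-month formalin, against 127 to 186 CPM in frozen liver, so the 12 and 12 libraries did not overlap, at 0.72 ± 0.07 and an adjusted p of 1.28e-09 by edgeR. Scd1 had 1608 to 32546 CPM, against 1074 to 17351 CPM in frozen liver, with wide overlap, at 0.84 ± 0.27 and an adjusted p of 0.00908. Elovl5 had 594 to 2088 CPM, against 412 to 1197 CPM in frozen liver, and rose by 0.70 ± 0.15 (adjusted p 0.000286). Elovl6 had 110 to 328 CPM, against 93.7 to 211 CPM in frozen liver, and rose by 0.69 ± 0.14 (0.00013). Both overlapped with frozen liver. The same 12 animals are in both states, so these ranges and SEs also hold the spread between animals. With the animal as a block, edgeR gave Scd1 0.83 ± 0.06 (adjusted p 9.33e-12) and Stard4 0.72 ± 0.05 (3.43e-13). Elovl5 was then at 0.70 ± 0.05 (5.18e-13) and Elovl6 at 0.67 ± 0.05 (1.46e-11).

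The 4 largest called falls in 3-month formalin were all sterol enzymes. Mvk, the mevalonate kinase, had 8.29 to 18.8 CPM in 3-month formalin, against 14 to 33.5 CPM in frozen liver, at -0.88 ± 0.14 and an adjusted p of 3.08e-06. Pmvk, the next kinase, had 9.12 to 42.0 CPM, against 35.8 to 72.5 CPM in frozen liver, at -0.82 ± 0.13 and 8.15e-06, so both kinases overlapped with frozen liver at their edges. Ebp had 83.7 to 175 CPM, against 185 to 243 CPM in frozen liver, and was apart from it, at -0.79 ± 0.08 and 8.12e-10. Fdft1 (chr14:63145150-63179578, minus strand), the squalene synthase, had 36.5 to 56.7 CPM in 3-month formalin, against 57.2 to 119 CPM in frozen liver, at -0.73 ± 0.10 and 9.35e-07. Its groups were apart, though its exons overlap those of Ctsb on the other strand. With the animal as a block, edgeR gave Mvk -0.88 ± 0.10 (adjusted p 1.00e-08) and Pmvk -0.83 ± 0.08 (1.01e-09). Ebp was then at -0.81 ± 0.06 (1.67e-12) and Fdft1 at -0.72 ± 0.07 (2.44e-10).

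After 18 hours of formalin the called rises were Stard4 (0.46 ± 0.06, adjusted p 1.71e-06), Fads1 (0.29 ± 0.07, 0.00225), Srebf2 (0.21 ± 0.08, 0.0313) and Hsd17b7, a 3-ketosteroid reductase (0.18 ± 0.07, 0.0489). The called falls were Fads2 (-0.37 ± 0.07, 0.000239), Ebp (-0.35 ± 0.04, 5.37e-07) and Fdft1 (-0.33 ± 0.13, 0.0391). The Fdft1 call was lost without the frozen library of Con animal 82B, left out after seeing the data, at -0.28 ± 0.12 and an adjusted p of 0.0837. These fits did not pair libraries by animal. With the animal as a block and all libraries in, edgeR gave Fdft1 -0.34 ± 0.04 (adjusted p 3.11e-08) and Hsd17b7 0.19 ± 0.04 (7.86e-05). In ethanol the calls were Mlxipl (0.79 ± 0.08, 7.73e-08), Srebf2 (0.31 ± 0.07, 0.00243) and Ebp (-0.27 ± 0.06, 0.000572). Ebp was the member called lower in all 7 preserved states, from -0.27 to -0.94, and it was lower in all 7 with the animal block and with library totals as well. Fdft1 and Fads2 were each called lower in 6 states. Mlxipl was called higher in 5 states, by 0.28 in TAE and by 0.75 to 1.02 in ethanol, heat only and the catalyst states. Hmgcs1, Fdps, Sqle, Lss, Msmo1 and Insig1 were called in none of the 7 without the animal block, and each was called in 1 or more with it, such as Hmgcs1 with PureLink (adjusted p 5.9e-06) and Insig1 in 18-hour formalin (0.00012).

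**Figure D4:**
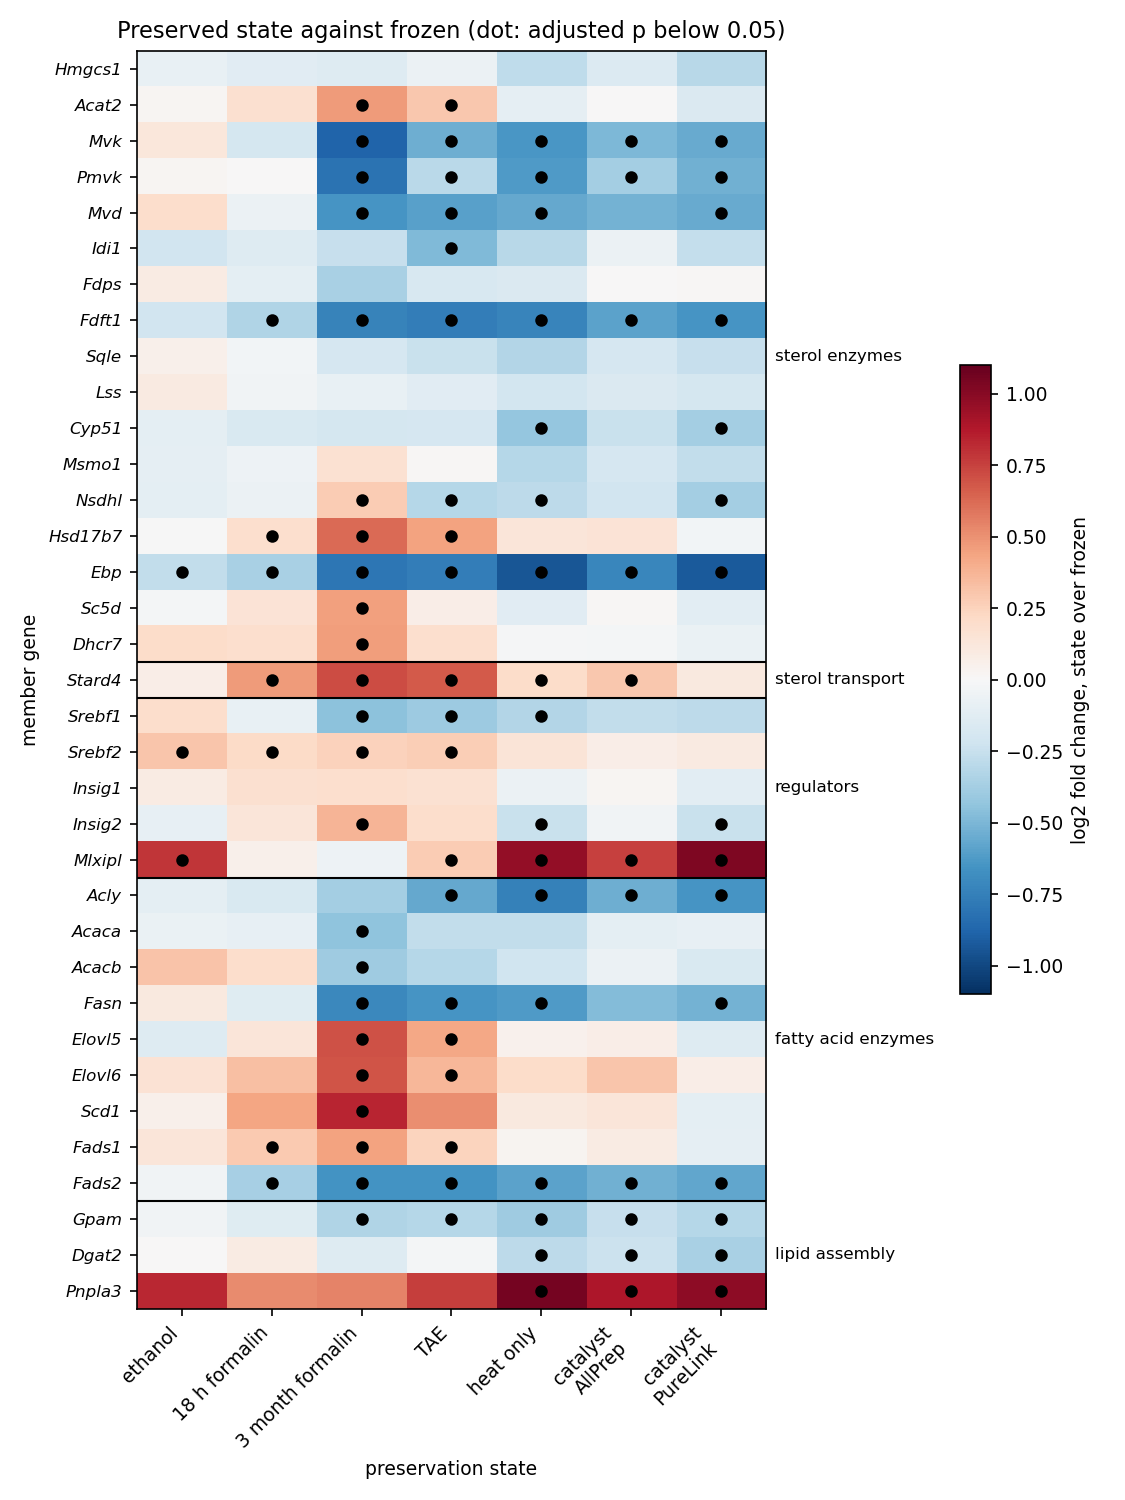
Log2 fold change of all 35 members (rows, grouped by role) in each of the 7 preserved states against frozen liver (columns), as colour from blue (lower than frozen) to red (higher), with a dot at an adjusted p under 0.05. Ebp is blue with a dot in every column and Mlxipl red with a dot in 5, while ethanol has the fewest dots.

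Base composition went with the direction of these shifts in some states. In 3-month formalin, Spearman's rho between the GC content of a gene's longest protein-coding transcript and its log2 fold change against frozen liver was -0.51 over the 35 members and -0.24 over all genes with a value, given as a description across genes that share the same libraries. Of the 17 members above the median GC content of 50.9%, 8 were called lower and 3 higher, with a median of -0.37. Of the other 18, 3 were called lower and 9 higher, with a median of 0.23. Mvk, one of the named falls, had the highest GC content of the set at 59.6%, and Idi1 the lowest at 41.9%. In ethanol the sign was the other way, with rho 0.62 over members and 0.47 over all genes. In the remaining states rho over members lay between -0.31 and -0.09, and over all genes between -0.13 with AllPrep and 0.14 in 18-hour formalin. Transcript length gave a rho over all genes of 0.07 in ethanol, 0.26 in 3-month formalin and 0.41 with PureLink. Over members these were 0.10, 0.14 and 0.23. The part of GC content or length in the shifts was not tested.

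**Figure D5:**
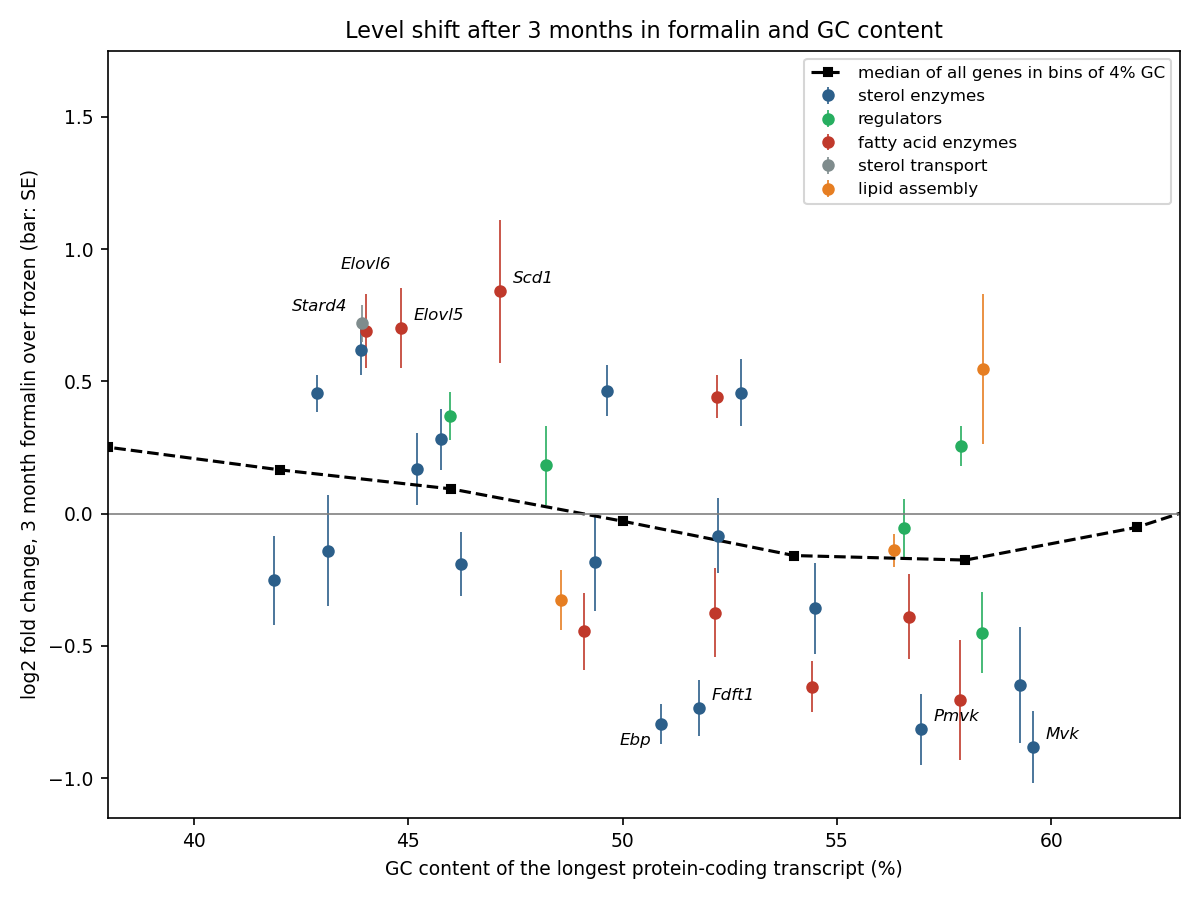
GC content of the longest protein-coding transcript (percent) against the log2 fold change in 3-month formalin over frozen liver, 1 point for each of the 35 members, coloured by role with bars of 1 SE, and the dashed line is the median of all genes in bins of GC content. Members of high GC content sit mostly below 0 and those of low GC content mostly above it, with a Spearman rho of -0.51.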

How the data were processed

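The values are raw read counts per Ensembl gene, 1 column for each of 96 libraries, as the authors deposited them. Per the submitters' processing notes the tools included CASAVA, STAR 2.5 and edgeR with the GRCm38 (mm10) build, without their roles. Which read counter was used, on what annotation and with what strand option, is not given in the sources used here. A deposited table of normalized log2 values was not used. The 92 rows of spike-in controls were left out, and 46954 of 47373 gene rows matched GENCODE M21, which gave symbols, coordinates, transcript lengths and GC content. Members and lists were chosen with earlier results of these data known.

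Each PB comparison was fitted within its state on 6 and 6 libraries with edgeR 4.0.16 in R 4.3.3 (TMM scaling, filterByExpr at a minimum count of 10, quasi-likelihood F test, Benjamini-Hochberg adjustment over all genes tested, called at 0.05). State comparisons used 12 and 12 libraries with treatment as a covariate. DESeq2 1.42.0, RLE scaling, library totals, no filter, leaving out each animal and, for states, the animal as a block were alternatives. Libraries of one animal are paired across states by the labels, and their deviations from group means correlated above 0.1 in 336 of 336 pairs (median 0.717 over 8394 genes). PB and Con are different animals, so PB comparisons cannot be paired. Within a group each library comes from a different animal, and the same animals recur in every state. SEs were taken from the fold change and the F statistic. The procedure was tested on simulated data. Values in every library are given for the 5 regulators and the members called in PB comparisons, states name the 4 largest rises and falls in the formalin states, and others are given by range or count. Overlapping exons on the other strand exist for 8 members and on the same strand for 3, and reads there may be shared.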

Additional observations from a re-analysis of the deposited data

Results flagged for a closer look

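For 8 members and the mean levels of the sterol enzymes and of the fatty acid genes, 160 groups of 6 libraries were looked at for a library standing apart from the other 5, and 7 were found, all in single members, where chance gives about 1 in 20 groups. Srebf1 was low in TAE PB animal 20B at 94.3 CPM, with the other 5 at 182 to 223 CPM. Srebf2 was high in PB animal 75C both in frozen liver, at 64.9 CPM with the others at 42.2 to 47.4 CPM, and in ethanol, at 81.7 CPM with the others at 49.0 to 59.5 CPM. Insig2 was low in frozen Con animal 8A at 339 CPM, with the others at 451 to 491 CPM. Mlxipl was high in ethanol Con animal 21C at 607 CPM, with the others at 384 to 434 CPM, and in TAE Con animal 8C at 344 CPM, with the others at 247 to 276 CPM. Fads2 was high in 3-month formalin PB animal 20D at 277 CPM, with the others at 134 to 172 CPM.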

How the results depend on the processing

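Counts of members called by PB moved by over 1.5 times under some settings. DESeq2 called 2 in 18-hour formalin, 3 in 3-month formalin, 2 in TAE, 2 in heat only and 3 in catalyst with PureLink. Library totals gave 0 in 3-month formalin and 1 in catalyst with AllPrep, and no filter on low counts gave 2 in 3-month formalin, TAE and catalyst with PureLink. With 1 animal left out the counts ran from 1 to 3 in frozen liver, 1 to 4 in ethanol, 1 to 3 in 18-hour formalin, 0 to 2 in 3-month formalin, 1 to 2 in heat only, and 1 to 3 in both catalyst states. The shares of all genes called by PB under these settings are not given here, so these counts cannot be set against them. Against frozen liver, library totals called 7 members in ethanol and 15 in 18-hour formalin.

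In the paired analysis, with the animal as a replicate block, the counts against frozen liver were 18 in ethanol, 24 in 18-hour formalin, 31 in TAE, 28 in heat only, 23 in catalyst with AllPrep and 31 in catalyst with PureLink, and the block changed no interaction call. Settings chosen after seeing the data, each without 1 library that stood apart, kept the counts within 1.5 times. For Fads2, Scd1 and Elovl5 under PB and the genes named in both formalin states, 404 values kept their direction and their side of the threshold, 50 lost the call, 20 gained it and 0 reversed; the causes were not tested. Among other members, Insig2 changed sign under library totals in heat only and PureLink. The smallest library, the 3-month formalin portion of Con animal 8A, had 1264563 counts.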
